A study of Mus musculus with 69 samples.

Results

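The cadherin switch and its regulators were followed through 9 genes of a bulk RNA-seq count table that holds 55367 gene symbols. They were the cadherin genes Cdh1, Cdh2 and Cdh11, the epithelial adhesion gene Epcam, the intermediate filament gene Vim, and the transcription factor genes Snai1, Zeb1, Zeb2 and Twist1. The genes were taken by symbol from the table and all 9 were present. The 69 libraries formed 23 groups of 3. At 0 h they came from mouse embryonic stem (mES) cells of the E14Tg2A line, and from 48 h to 144 h from cells sorted by colour out of mosaic gastruloids, aggregates of mES cells that form cell types of the early embryo after a pulse of the Wnt agonist CHIR. WT–mCherry cells carried H2B–mCherry under the EF1α promoter and WT–emiRFP cells carried H2B–emiRFP670 under the CAG promoter. The p53KO–emiRFP cells were made from the WT–emiRFP cells and carried a homozygous frameshift in Trp53, obtained under Nutlin-3a selection. Each of these lines was 1 clone. WT + WT gastruloids began as 150 cells of each WT clone. WT + p53KO gastruloids began as 150 WT–mCherry and 25 p53KO–emiRFP cells. The p53KO–emiRFP and WT–emiRFP cells of the gastruloids therefore differed in genotype, in the number seeded and in their neighbours, and these cannot be told apart.

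In epithelial cells, E-cadherin, the product of Cdh1, holds neighbouring cells together at adherens junctions through catenins that bind the actin cytoskeleton. During gastrulation, cells that leave the epithelial epiblast through the primitive streak replace E-cadherin with N-cadherin, the product of Cdh2, in an epithelial to mesenchymal transition (EMT). The zinc finger factors Snai1, Zeb1 and Zeb2 repress Cdh1 by binding E-boxes, and the basic helix-loop-helix factor Twist1 and the cytoskeletal protein vimentin mark mesenchymal cells. Cdh11 encodes a cadherin of mesenchymal cells, and Epcam encodes an adhesion molecule of epithelia that mES cells also carry.

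The E-box that Snai and Zeb proteins bind reads CACCTG, or CAGGTG on the opposite strand. It was searched on both strands of the 250 bases before each annotated start of the members for which the RefSeq promoter table on GRCm38.p6 holds an entry, which were 5 of 9. The sequences below are those of the only genes among these 5 with a match, an epithelial adhesion gene and one of the regulators, with the E-box in capitals and each window written in the direction of transcription.
Epcam chr17:87635729-87635978, plus strand: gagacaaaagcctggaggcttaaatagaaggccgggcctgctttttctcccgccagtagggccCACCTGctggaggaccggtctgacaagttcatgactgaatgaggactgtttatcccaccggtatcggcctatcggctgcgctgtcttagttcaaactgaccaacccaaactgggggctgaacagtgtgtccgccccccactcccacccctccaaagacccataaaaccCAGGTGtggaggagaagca
Snai1 chr2:167537945-167538194, plus strand: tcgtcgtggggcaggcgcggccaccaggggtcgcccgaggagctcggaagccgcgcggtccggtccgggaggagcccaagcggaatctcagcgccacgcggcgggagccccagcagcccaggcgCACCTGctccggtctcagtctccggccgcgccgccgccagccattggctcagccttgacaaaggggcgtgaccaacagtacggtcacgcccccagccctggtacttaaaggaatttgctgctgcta
The Epcam window held 2 matches, which begin 187 and 19 bases before the start. The Snai1 window held 1 match, which begins 126 bases before the start. These letters are not in the windows of Vim, Zeb2 or Twist1. Of the 32851 promoters in the table, 17.2% hold at least 1 match and 2.06% hold 2 or more. A match describes the letters of a window, and binding was not measured.

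Library totals ran from 26722541 to 72981570 counts, with a median of 53098728. Values are normalized counts, the raw count divided by the library's median-of-ratios size factor, and are given as mean ± SD of 3 libraries or library by library. Trp53 averaged 1621 to 2484 normalized counts in the p53KO–emiRFP groups and 14611 to 25497 in the WT groups, and no p53KO–emiRFP library reached the WT range. The 8 pluripotency markers were all detected in the mES cells. Replicate libraries came from separate experiments, as the methods describe, and the p-values measure the spread between those libraries. The purity of the sorted cells was not re-examined after sorting. H2bc14, which was high in emiRFP libraries (5289 to 9941 on average) and averaged 7.24 in WT–mCherry mES cells, gave an estimate of the RNA from emiRFP cells in the sorted WT–mCherry libraries. That share was at most 2.01% beside WT cells and rose from at most 0.278% at 48 h to 16.8%, 2.26% and 9.10% in the 3 libraries beside p53KO–emiRFP cells at 144 h. In bulk RNA, fewer cells of a type and less RNA per cell cannot be told apart.

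In mES cells the epithelial adhesion genes were the highest of the 9 per length of transcript. In the WT–emiRFP clone Cdh1 averaged 87.0 ± 4.80 RPKM (reads scaled to exon length and to normalized library size), Epcam 62.1 ± 5.83 and Vim 29.0 ± 7.15. Snai1, Zeb1 and Twist1 followed at 3.27 ± 0.445, 1.60 ± 0.380 and 1.17 ± 0.295. Cdh2 averaged 0.443 ± 0.0889 and Zeb2 0.111 ± 0.0460 on the same scale. Cdh11 was at the limit of detection, with 1 to 6 reads in each mES library.

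In WT cells of WT + WT gastruloids, Cdh1 and Epcam rose at first and then fell. Cdh1 averaged 21022 ± 1160 normalized counts in WT–emiRFP and 21983 ± 947 in WT–mCherry mES cells. At 48 h the averages were 45297 ± 2470 and 46652 ± 854, and at 96 h 13337 ± 1079 and 15362 ± 1741. Every gastruloid library at 48 h was above every mES library, and every library at 96 h was below them. On the mean of both WT clones Cdh1 rose by 1.10 ± 0.07 (log2 fold change ± SE, adjusted p = 4.3e-21, edgeR quasi-likelihood test, adjusted by the Benjamini-Hochberg method over all genes) from 0 to 48 h and fell by 1.23 ± 0.07 (adjusted p = 1.4e-22) from 72 to 96 h. Epcam moved with it, rising by 1.08 ± 0.08 (adjusted p = 2.6e-18) and falling by 1.24 ± 0.08 (adjusted p = 3.0e-20) in these steps. Epcam then rose by 0.46 ± 0.08 from 96 to 120 h, and from 120 to 144 h Epcam rose by 0.43 ± 0.08 and Cdh1 by 0.30 ± 0.07 (adjusted p = 1.7e-06, 8.4e-06 and 2.9e-04). At 144 h Cdh1 averaged 17969 ± 1630 in WT–emiRFP cells, above its level at 96 h, and 13562 ± 1358 in WT–mCherry cells, below it. The fall of Cdh1 from 96 to 120 h was small at 0.17 ± 0.07 (adjusted p = 0.03) and was not past the threshold without replicate 1 (-0.07, adjusted p = 0.47) or replicate 3 (-0.21, adjusted p = 0.053). Cdh1 lies on GRCm38 at chr8:106603351-106670246 (plus strand) and Epcam at chr17:87635979-87651129 (plus strand), and counts were summed over their exons.

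Cdh2 rose in 3 successive steps in the WT cells. It averaged 189 ± 37.9 normalized counts in WT–emiRFP mES cells, 486 ± 48.7 at 48 h, 1607 ± 253 at 72 h and 11118 ± 456 at 96 h. WT–mCherry cells reached 10013 ± 968 at 96 h. On the mean of both clones the steps were 1.20 ± 0.14, 1.68 ± 0.12 and 2.83 ± 0.11 on the log2 scale (adjusted p = 4.0e-11, 2.4e-18 and 5.4e-29), and no library of an earlier time overlapped the next. Cdh2 then fell by 0.50 ± 0.11 and 0.61 ± 0.11 in the steps to 120 and 144 h (adjusted p = 5.5e-05 and 2.9e-06). In the last of these steps the WT–emiRFP mean went from 6575 ± 1207 to 3036 ± 633 and the WT–mCherry mean from 8446 ± 1896 to 7804 ± 1054. Cdh11 rose in the same 3 steps as Cdh2, by 1.84 ± 0.54, 2.06 ± 0.30 and 2.95 ± 0.18, and rose again from 96 to 120 h, by 1.35 ± 0.14 (adjusted p = 0.0025, 3.3e-08, 7.4e-21 and 4.1e-12). The first Cdh11 step was not past the threshold without replicate 1 (1.73, adjusted p = 0.062). Summed over 3 libraries at each end and scaled for depth, Cdh11 was 180-fold higher at 144 h than at 0 h in WT–emiRFP cells (1712 against 10 reads), with an exact 95% interval of 97.5 to 375 that covers counting error only. The ratio was 452 in WT–mCherry cells (219 to 1125, 4676 against 7 reads) and 330 in p53KO–emiRFP cells (189 to 640, 4521 against 12 reads). These intervals overlap, since each rests on few reads at 0 h. Cdh11 lies at chr8:102632095-102785642 (minus strand) on GRCm38.

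**Figure D1:**
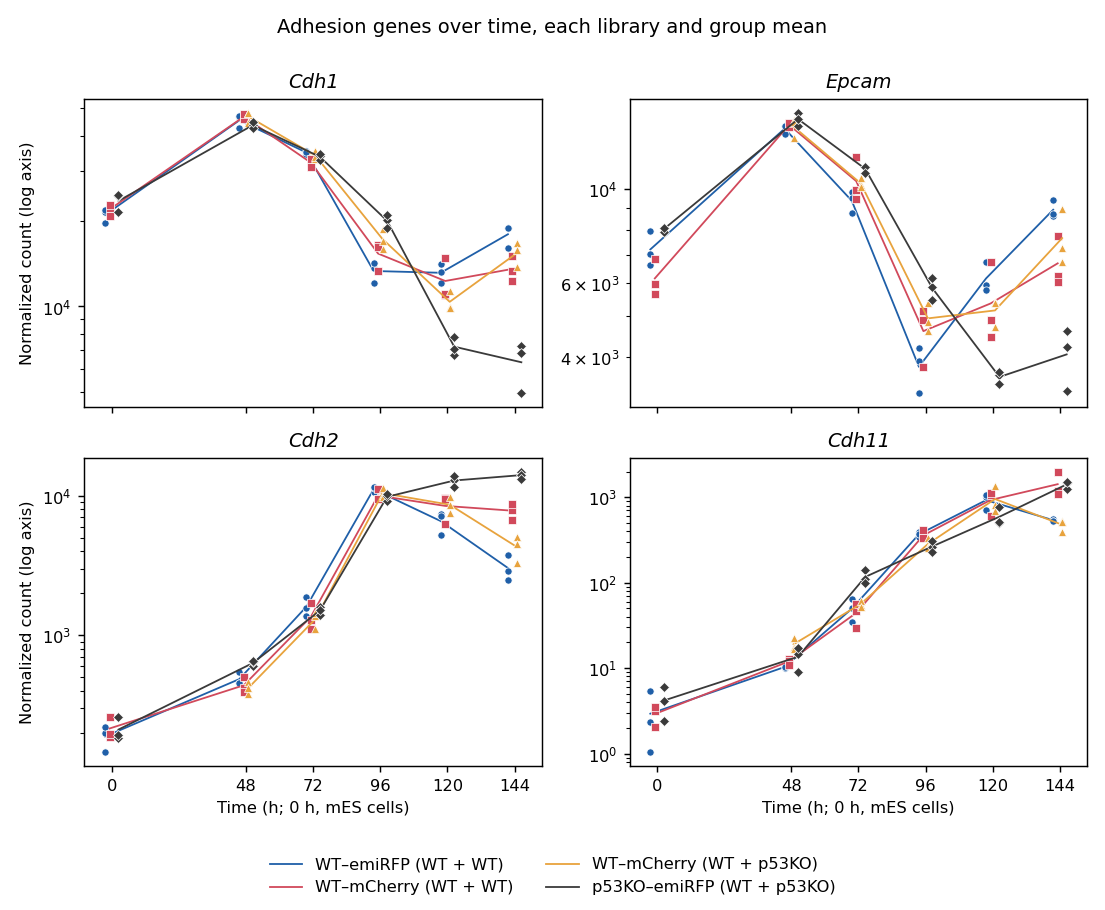
Normalized counts on log axes of Cdh1, Epcam, Cdh2 and Cdh11 against time in hours, with each library as a point and the mean of each population as a line, in 4 colours and marker shapes for the populations and with points shifted sideways within a time. The points at 0 h are the mES clones, and from 120 h the p53KO–emiRFP libraries lie below all others for Cdh1 and Epcam and above all others for Cdh2.

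The regulators did not move together in the WT cells. Zeb1 and Vim fell as the mES cells were aggregated, and in the WT–emiRFP clone the normalized count of Zeb1 went from 869 ± 206 to 73.0 ± 7.81 and that of Vim from 7270 ± 1792 to 1512 ± 67.3 between 0 and 48 h. These were falls by 3.40 ± 0.13 and 2.28 ± 0.10 on the log2 scale over both clones (adjusted p = 1.0e-30 and 1.8e-27), and the mES and 48 h libraries did not overlap. Vim rose again by 1.82 ± 0.10 from 48 to 72 h (adjusted p = 6.9e-23). Zeb1 rose mainly from 72 to 96 h, by 2.34 ± 0.11 (adjusted p = 1.8e-25), and averaged 1391 ± 168 in WT–emiRFP cells at 96 h. Zeb2 rose most between 48 and 72 h, by 2.33 ± 0.13 (adjusted p = 9.6e-23), and was highest at 96 h with 2128 ± 233 in WT–emiRFP and 1918 ± 323 in WT–mCherry cells.

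Snai1 was the most transient of the regulators. Its 3 WT–emiRFP libraries held 184, 244 and 166 normalized counts at 48 h. These became 836, 681 and 508 at 72 h, then 1944, 2573 and 2616 at 96 h. By 120 h they were back to 580, 723 and 578. The 96 h libraries of both WT clones lay above those of every other WT time point shown here. Snai1 rose by 1.70 ± 0.16 and 1.73 ± 0.14 in the steps to 72 and 96 h and fell by 1.62 ± 0.14 in the step to 120 h (adjusted p = 9.1e-14, 1.4e-15 and 1.4e-14). Twist1, which acts later in mesoderm, rose through 120 h, with its largest step of 1.07 ± 0.10 from 96 to 120 h (adjusted p = 3.5e-13). Snai1 at chr2:167538195-167542814 (plus strand), and Twist1 at chr12:33957671-33959829 (plus strand) have no gene over their exons in the annotation. Exons of Zeb2 (chr2:44983632-45117395, minus strand) overlap Zeb2os and other non-coding genes that averaged at most 6.61 counts.

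**Figure D2:**
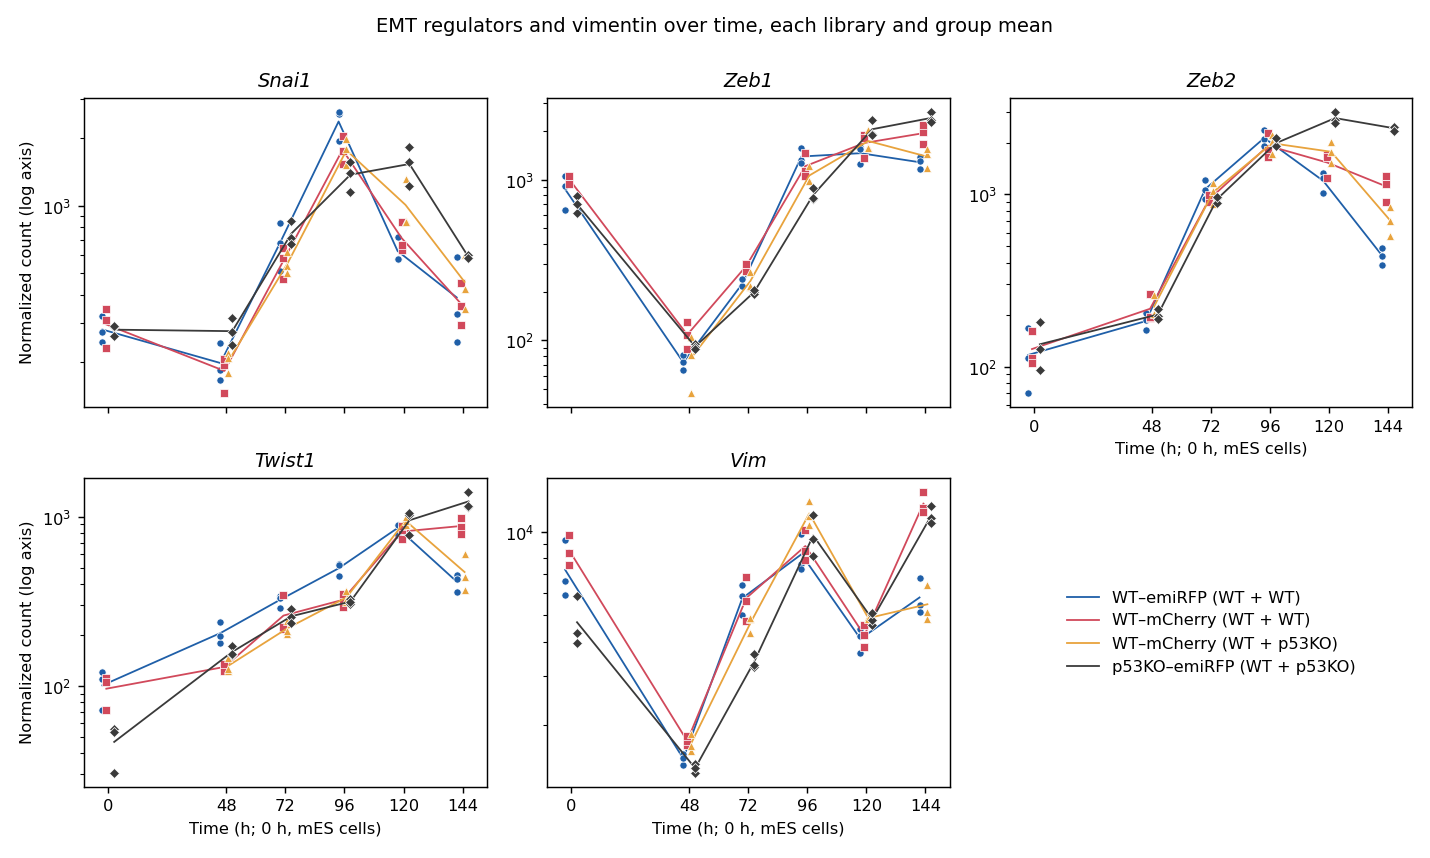
Normalized counts on log axes of Snai1, Zeb1, Zeb2, Twist1 and Vim against time in hours, with each library as a point, population means as lines and points shifted sideways within a time. Snai1 in WT cells peaks at 96 h, where the WT–emiRFP libraries hold 1944 to 2616, and Zeb1 and Vim are lowest at 48 h.

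Counted over the 9 genes, every one passed the test in the WT steps from 0 to 48, 48 to 72, 72 to 96 and 96 to 120 h, where 67.7%, 60.4%, 52.4% and 52.5% of all tested genes did. From 120 to 144 h 7 of 9 passed, against 43.3% of all genes. Of 8 pluripotency markers 0 were higher and 7 lower from 0 to 48 h. In the later steps 6, 5, 7 and 6 were higher and 1, 3, 1 and 0 lower, and from 0 to 144 h all 8 were lower. Their part in these changes was not tested. From end to end, 0 to 144 h, 7 were higher and 1 was lower, against 35.9% and 35.4% of all genes (71.3% in either direction). The changes over this span were a fall of Cdh1 by 0.46 ± 0.07 and rises of Cdh2 by 4.59 ± 0.13, Zeb2 by 2.52 ± 0.14, Twist1 by 2.58 ± 0.12 and Zeb1 by 0.76 ± 0.10 (adjusted p = 2.7e-08, 7.7e-36, 3.1e-23, 1.2e-26 and 3.2e-09). The rises of Snai1 by 0.38 ± 0.16 and Epcam by 0.22 ± 0.08 (adjusted p = 0.028 and 0.012) came to 0.08 and 0.10 without replicate 2 and were then not past the threshold (adjusted p = 0.7 and 0.29). Vim differed by 0.11 ± 0.10 (adjusted p = 0.29) on the mean of both clones, whose levels went opposite ways, from 8559 ± 1103 to 12614 ± 1120 normalized counts in WT–mCherry and from 7270 ± 1792 to 5778 ± 899 in WT–emiRFP cells. The clones differed in 8 of the 9 genes at 144 h, with the values given with their comparison.

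In p53KO–emiRFP cells 8, 9, 8, 8 and 4 of the 9 genes changed in the 5 steps, where 59.5%, 46.4%, 44.6%, 35.0% and 22.7% of all genes did. Over the whole span all 9 changed, against 73.8% of all genes, with 7 higher and 2 lower. Of 8 pluripotency markers 0, 5, 1, 1 and 5 were higher and 7, 2, 5, 4 and 0 lower in the 5 steps. Over the whole span all 8 were lower, and their part in these changes was not tested. Cdh1 fell by 0.75 ± 0.10 from 72 to 96 h and by 1.47 ± 0.10 from 96 to 120 h (adjusted p = 2.8e-09 and 1.2e-18), so that the larger fall came in the later step. Zeb1 rose by 1.36 ± 0.15 and Cdh2 by 0.39 ± 0.15 from 96 to 120 h (adjusted p = 2.5e-11 and 0.035), the latter not past the threshold without replicate 1 (0.33, adjusted p = 0.24) or replicate 3 (0.36, adjusted p = 0.14). Snai1 averaged 1376 ± 213 at 96 h and 1536 ± 305 at 120 h, a difference of 0.16 ± 0.20 (adjusted p = 0.58), and fell by 1.38 ± 0.20 in the step to 144 h (adjusted p = 3.0e-07). Over the whole span Cdh1 fell by 1.89 ± 0.10 and Epcam fell by 0.98 ± 0.11, while Cdh2 rose by 6.06 ± 0.20, Twist1 by 4.73 ± 0.19 and Zeb2 by 4.18 ± 0.19 (adjusted p = 2.2e-24, 1.7e-11, 9.0e-34, 7.9e-30 and 9.5e-27).

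How p53KO–emiRFP cells differ from WT–emiRFP cells at matched times is the first comparison the design sets up. In mES cells 2 of the 8 genes that passed the low-count filter (Cdh11 did not) were lower, Twist1 by a log2 fold change of -1.12 ± 0.27 and Vim by -0.63 ± 0.17 (adjusted p = 0.025 and 0.048), where 6.14% of all genes were called. Both calls were lost without replicate 2 (adjusted p = 0.14 and 0.36) or replicate 3 (adjusted p = 0.15 and 0.12). They were also lost with only the 2 compared groups in the fit. Of 6 endoderm markers tested in mES cells 4 were lower as well (summed 95.1 to 167 against 285 to 330), as were 2 of 8 pluripotency markers (239446 to 254875 against 282860 to 295432), and their part in the result was not tested. At 48 h 3 of 9 were called, against 22.1% of all genes, with Cdh2 at 0.38 ± 0.10, Snai1 at 0.47 ± 0.16 and Twist1 at -0.37 ± 0.12 (adjusted p = 0.016, 0.045 and 0.039). The Snai1 and Twist1 calls were lost without any replicate in turn, and the Cdh2 call without replicate 1 (adjusted p = 0.11) or 2 (adjusted p = 0.12). With all 23 groups in 1 fit 0 of the 9 genes were called at 48 h. At 72 h 3 of 9 were called, against 29.1%. Vim was lower by -0.76 ± 0.11 (adjusted p = 1.6e-04), Cdh11 was higher by 1.23 ± 0.23 (adjusted p = 0.0012) and Epcam was higher by 0.25 ± 0.07 (adjusted p = 0.018). Without replicate 1 the Cdh11 difference was 1.08 (adjusted p = 0.052), and Epcam was not called without replicate 1 or 2 (adjusted p = 0.091 and 0.098). Of 6 primordial germ cell markers 1 was higher and 4 were lower at 72 h (summed 1777 to 2151 against 1964 to 2214) and 3 of 8 pluripotency markers were lower (57134 to 61783 against 59005 to 67364), and their part in the result was not tested. At 48 h no marker list had more than 2 genes called in 1 direction. Pairing the libraries by replicate number added Vim at 48 h and Zeb2 at 72 h (adjusted p = 0.034 for each).

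At 96 h the p53KO–emiRFP cells held more RNA of the epithelial adhesion genes and less of 3 regulators than the WT–emiRFP cells. Cdh1 read 20216, 21070 and 18874 normalized counts in the p53KO–emiRFP libraries and 13612, 14253 and 12148 in the WT–emiRFP libraries. Snai1 read 1150, 1405 and 1572 against 1944, 2573 and 2616, and Zeb1 761, 765 and 881 against 1321, 1269 and 1582. The groups did not overlap for any of these genes, all of which the test had called. Cdh1 and Epcam were higher by 0.59 ± 0.08 and 0.62 ± 0.11 (adjusted p = 1.4e-04 and 6.9e-04). Snai1, Zeb1 and Twist1 were lower by -0.79 ± 0.14, -0.79 ± 0.13 and -0.65 ± 0.10 (adjusted p = 8.2e-04, 3.7e-04 and 1.9e-04). Twist1 averaged 315 ± 11.6 normalized counts in p53KO–emiRFP and 495 ± 42.8 in WT–emiRFP cells, but 322 ± 29.3 and 333 ± 26.3 in the WT–mCherry cells of WT + WT and WT + p53KO gastruloids. Snai1 read 1540 to 2040 and 1527 to 1982 in these WT–mCherry cells, ranges that overlap that of p53KO–emiRFP cells. Zeb1 read 1054 to 1455 and 976 to 1221 there, above every p53KO–emiRFP library. Cdh1 read 13357 to 16494 and 15999 to 18792 there, below every p53KO–emiRFP library. Cdh11 was lower by -0.47 ± 0.13 (adjusted p = 0.021), a call that was lost without replicate 1 (adjusted p = 0.16) or 2 (adjusted p = 0.2). In all 6 of 9 genes were called, against 23.3% of all genes. Cdh2, Vim and Zeb2 stood at -0.18 ± 0.07, 0.23 ± 0.13 and -0.10 ± 0.11 (adjusted p = 0.08, 0.25 and 0.59). With replicate number as a block, Cdh2 and Vim also passed (adjusted p = 5.5e-04 and 3.7e-05). Cell type markers moved at 96 h too. Of 8 pluripotency markers 6 were lower (summed 28687 to 31090 against 42530 to 47706), of 7 primitive streak markers 5 were higher and 1 lower (64454 to 71841 against 37541 to 45821), and of 7 paraxial mesoderm markers tested 4 were lower (9570 to 13106 against 17647 to 21029). Of 6 primordial germ cell markers 3 were lower (3577 to 3881 against 4661 to 5329). Their part in the result was not tested.

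By 120 h the direction had turned for Cdh1, Epcam, Snai1 and Zeb1. The p53KO–emiRFP libraries held 6758, 7795 and 7099 normalized counts of Cdh1, against 12062, 14161 and 13211 in WT–emiRFP cells. Cdh2 read 13008, 11599 and 13904 against 7396, 5190 and 7140, and Snai1 1219, 1827 and 1561 against 580, 723 and 578. For each of these genes, all called by the test, the lowest library of the higher group was above the highest of the lower group. Cdh1 was lower by -0.86 ± 0.11 and Epcam by -0.77 ± 0.12 (adjusted p = 1.2e-05 and 9.2e-05). Cdh2 was higher by 0.97 ± 0.16, Snai1 by 1.29 ± 0.19, Zeb2 by 1.21 ± 0.13 and Zeb1 by 0.50 ± 0.14 (adjusted p = 1.7e-04, 4.8e-05, 3.1e-06 and 0.008), and these 6 calls held without each replicate in turn. Vim was higher by 0.23 ± 0.08 (adjusted p = 0.021), a call lost without replicate 1 (0.28, adjusted p = 0.09) or 2 (0.16, adjusted p = 0.082). Thus 5 genes were higher and 2 lower, where 27.3% and 23.7% of all genes were (51.0% in either direction). Twist1 stood at 0.15 ± 0.11 (adjusted p = 0.27) and Cdh11 at -0.64 ± 0.27 (adjusted p = 0.061), which passed with replicate number as a block (adjusted p = 2.8e-04). At that time all 8 pluripotency markers were lower (summed 18753 to 19674 against 80677 to 91401), as were all 6 primordial germ cell markers (2644 to 2723 against 9991 to 11089) and 6 of 8 haematoendothelial markers (858 to 1215 against 5675 to 5874). Of 7 primitive streak markers 6 were higher and 1 lower (19996 to 23835 against 3708 to 4326), and of 8 endoderm markers 1 was higher and 3 lower (946 to 1252 against 756 to 1147). The part of these cell types in the values of the 9 genes was not tested.

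At 144 h 8 of the 9 genes differed, 6 higher and 2 lower in p53KO–emiRFP cells, where 33.2% and 32.2% of all genes were higher and lower (65.4% in either direction). Cdh1 read 4937, 7281 and 6860 normalized counts in the p53KO–emiRFP libraries and 16088, 18848 and 18970 in the WT–emiRFP libraries, and Epcam read 3338, 4615 and 4239 against 8651, 9416 and 8731. The reverse held for Cdh2, with 14827, 14012 and 13270 against 3734, 2499 and 2875. Zeb2 read 2469, 2453 and 2347 against 492, 388 and 439. In these 4 genes the groups were far apart, and the fitted level in p53KO–emiRFP cells was 2.83-fold lower for Cdh1, 2.20-fold lower for Epcam, 4.62-fold higher for Cdh2 and 5.51-fold higher for Zeb2. The log2 fold changes were -1.50 ± 0.13, -1.14 ± 0.13, 2.21 ± 0.16 and 2.46 ± 0.15 (adjusted p = 2.0e-07, 2.8e-06, 4.1e-08 and 6.3e-09).

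The other mesenchymal genes were also higher than in WT–emiRFP cells at 144 h. Cdh11 read 1486, 1243 and 1509 against 554, 532 and 530, and Twist1 1394, 1143 and 1149 against 453, 426 and 360. The differences were 1.39 ± 0.19 for Cdh11, 1.57 ± 0.16 for Twist1, 0.98 ± 0.12 for Vim and 0.91 ± 0.11 for Zeb1 (adjusted p = 1.8e-05, 8.2e-07, 5.0e-06 and 6.7e-06). Every one of the 8 calls held without each replicate in turn. The WT–mCherry clone in WT + WT gastruloids had Vim at 12614 ± 1120 and Cdh11 at 1422 ± 491, beside 11421 ± 819 and 1412 ± 148 in p53KO–emiRFP cells, so for these genes the p53KO–emiRFP mean was above that of 1 WT clone and not of the other. Snai1 was the exception, since 1 WT–emiRFP library stood at the level of the p53KO–emiRFP libraries (586, 601 and 582 against 329, 591 and 247). Its difference of 0.61 ± 0.27 missed the threshold (adjusted p = 0.061) and passed with replicate number as a block (adjusted p = 9.6e-04). The median log2 fold change of the 9 genes was 0.98, beside 0.007 over all tested genes.

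**Figure D3:**
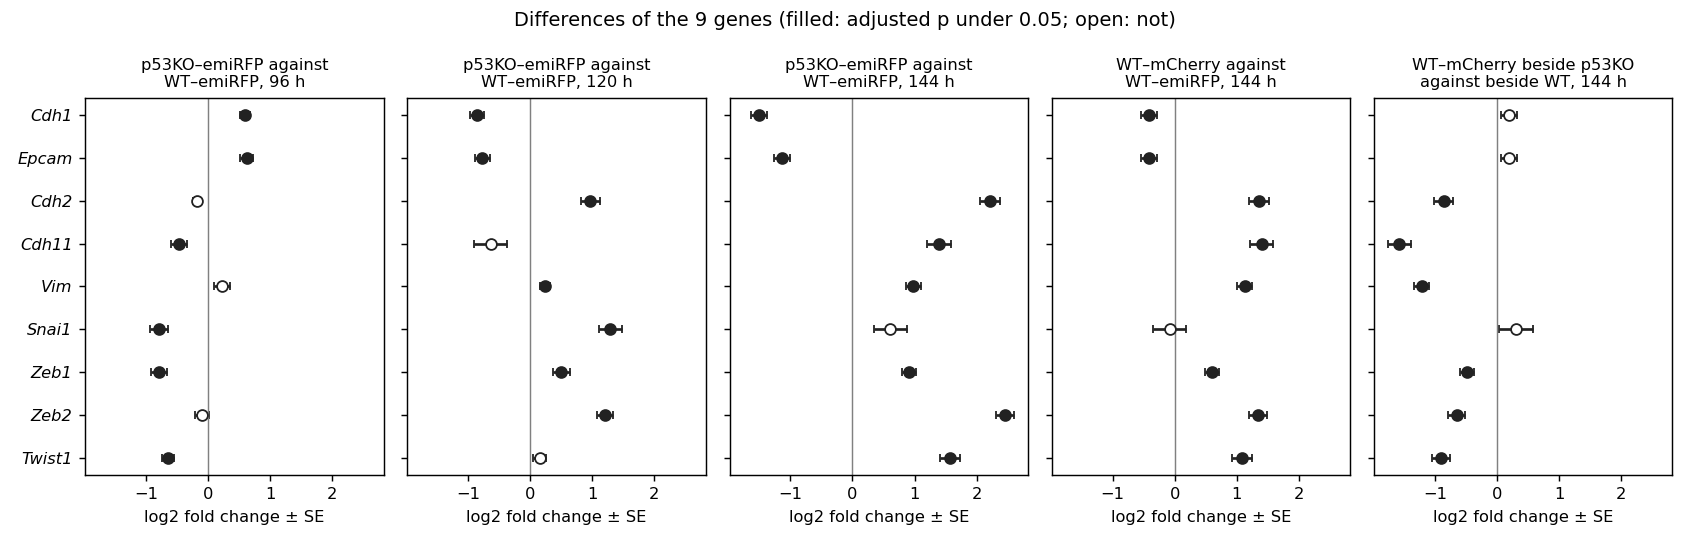
Log2 fold change with its standard error for each of the 9 genes in 5 comparisons, with filled points for adjusted p under 0.05 and open points for the rest. Cdh1 and Epcam lie right of 0 at 96 h and left of 0 at 120 and 144 h in p53KO–emiRFP against WT–emiRFP cells. For WT–mCherry cells compared by neighbour at 144 h, 6 genes lie left of 0 with filled points.

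The test of whether the difference between p53KO–emiRFP and WT–emiRFP cells was equal from 0 to 144 h was past the threshold for all 9 genes, against 62.5% of all genes. The genes with the smallest values were Cdh1 (adjusted p = 2.6e-19) and Zeb2 (adjusted p = 3.0e-15), and the largest value was that of Snai1 (adjusted p = 3.4e-07).

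The ratio of Cdh2 to Cdh1 within a library, each taken per base of exon, does not depend on scaling between libraries. The lengths are unions of all annotated exons, 8066 bases for Cdh2 and 4574 for Cdh1, and not those of the expressed transcripts. Where the ratio crosses equal amounts depends on these lengths, which cancel in the differences between groups. In mES cells Cdh1 exceeded Cdh2 by 198-fold in p53KO–emiRFP and 199-fold in WT–emiRFP cells. At 96 h the excess had shrunk to 3.60-fold and 2.11-fold. At 120 h the p53KO–emiRFP libraries had a log2 ratio of 0.13, -0.24 and 0.15, on both sides of equal amounts, while the WT–emiRFP libraries stood at -1.52, -2.27 and -1.71. At 144 h Cdh2 exceeded Cdh1 in all 3 p53KO–emiRFP libraries (0.77, 0.13 and 0.13), and in all 3 WT–emiRFP libraries Cdh1 exceeded Cdh2 (-2.93, -3.73 and -3.54). The difference between the groups was -0.77 at 96 h, 1.84 at 120 h and 3.74 at 144 h on the log2 scale. The libraries did not overlap at these times nor at 48 h (0.44), and the exact two-sided permutation test gave p = 0.1, the smallest that 3 against 3 libraries allow. At 0 and 72 h the groups overlapped, with differences of 0.01 and -0.04 (exact permutation p = 1.0 and 0.8).

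**Figure D4:**
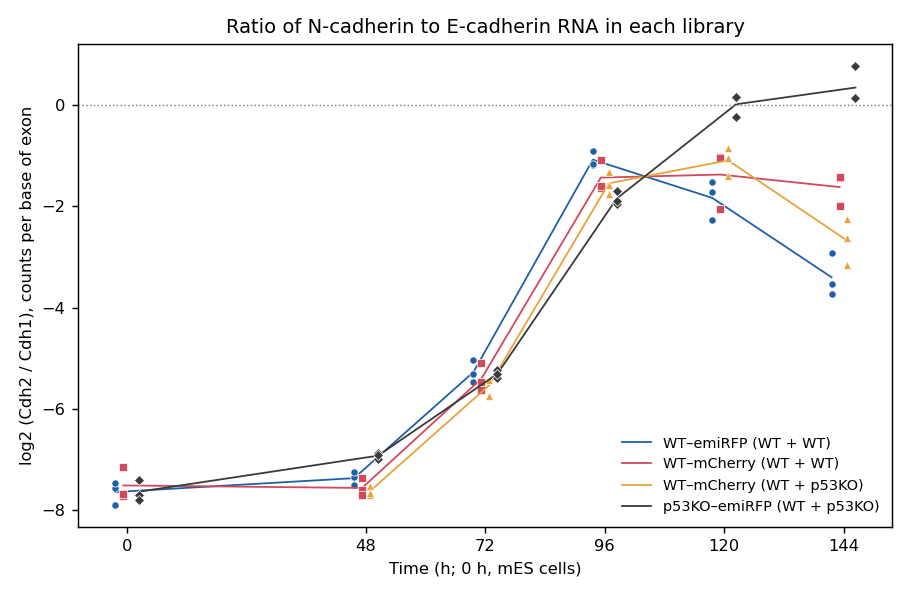
Log2 ratio of Cdh2 to Cdh1 counts per base of exon against time in hours, with each library as a point, population means as lines and a dotted line at equal counts per base of exon. The p53KO–emiRFP libraries lie around 0 at 120 h and above it at 144 h, and the libraries of the 3 WT populations stay below it.

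Per length of transcript, the order of the genes differed between the cells at 144 h. In WT–emiRFP cells Epcam and Cdh1 led with 77.1 ± 3.63 and 74.4 ± 6.75 RPKM, ahead of Vim at 23.1 ± 3.59 and Cdh2 at 7.13 ± 1.49. In p53KO–emiRFP cells Vim led with 45.6 ± 3.27, followed by Epcam at 35.1 ± 5.66, Cdh2 at 32.95 ± 1.83 and Cdh1 at 26.3 ± 5.17. Twist1 averaged 14.3 ± 1.66 there and 4.80 ± 0.558 in WT–emiRFP cells. The neighbours in this order, Epcam with Cdh1 in WT–emiRFP cells and Epcam with Cdh2 in p53KO–emiRFP cells, differed by less than their spread.

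The WT–mCherry and WT–emiRFP cells of the same WT + WT gastruloids also differed at 144 h. Cdh2 read 7940, 6689 and 8784 normalized counts in WT–mCherry cells, against the 3734, 2499 and 2875 of WT–emiRFP cells. Vim read 12214, 11750 and 13880 against 6803, 5409 and 5123. WT–mCherry cells were the higher in every same-numbered pair of libraries for these genes. The differences were 1.36 ± 0.16 for Cdh2, 1.40 ± 0.19 for Cdh11, 1.13 ± 0.12 for Vim, 1.34 ± 0.15 for Zeb2, 1.09 ± 0.16 for Twist1 and 0.60 ± 0.11 for Zeb1 (adjusted p = 1.0e-04, 2.5e-04, 6.3e-05, 7.4e-05, 3.4e-04 and 0.0019). Cdh1 and Epcam were lower by -0.41 ± 0.13 and -0.42 ± 0.13 (adjusted p = 0.032 and 0.027). Without replicate 2 or 3 the Cdh1 difference was -0.45 or -0.35 (adjusted p = 0.062 and 0.23), and without replicate 1 or 3 that of Epcam was -0.40 or -0.37 (adjusted p = 0.086 and 0.2). Thus 8 of 9 genes were called, against 23.8% of all genes, and Snai1 stood at -0.08 ± 0.27 (adjusted p = 0.88). This comparison and that of p53KO–emiRFP cells share the WT–emiRFP libraries, so the values of each are given on their own.

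Before 144 h fewer of the genes were called between the WT clones. The calls were 0 of 8 genes at 0 h, 2 of 9 at 48 h (Vim at 0.21 and Twist1 at -0.67), 1 at 72 h (Zeb1 at 0.37), 1 at 96 h (Twist1 at -0.62) and 0 at 120 h. Of all genes 11.1%, 8.90%, 7.64%, 2.15% and 1.22% were called at these times. For the times with 0 calls by edgeR, 1 gene at 0 h and 2 at 120 h had an unadjusted p under 0.05, and DESeq2 called 0. Of all tested genes, 4975 of 18395 at 0 h and 2661 of 18901 at 120 h had an unadjusted p under 0.05. The adjusted p values were 0.043 and 0.003 at 48 h, 0.044 at 72 h and 0.0038 at 96 h. Vim at 48 h and Zeb1 at 72 h were lost without any replicate in turn, and Twist1 was lost without replicate 2 at 48 h (adjusted p = 0.086) and without replicate 1 or 2 at 96 h. With replicate number as a block Zeb1 was added at 48 h, Cdh1, Cdh2, Epcam, Snai1, Zeb1 and Zeb2 at 96 h and Cdh2 and Zeb2 at 120 h (adjusted p = 0.011, then 7.3e-04, 0.0074, 5.5e-04, 9.4e-07, 0.0065 and 0.03, then 0.0036 and 0.0032). Over all genes the block raised the calls from 1572 to 5098 at 48 h, from 395 to 2927 at 96 h and from 231 to 2040 at 120 h.

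WT–mCherry cells were sorted from both kinds of gastruloid, so the same clone could be compared between them. The gastruloids differed in the genotype of the neighbour and in the number of emiRFP cells seeded, 25 against 150, and these cannot be told apart. Beside p53KO–emiRFP cells none of the 9 genes was called by edgeR at 48, 72, 96 or 120 h, where 0.0736%, 0.559%, 3.92% and 5.94% of all genes were. At an unadjusted p under 0.05 there were 2, 2, 2 and 3 of the 9 genes. Of all tested genes 1068 of 17662, 1744 of 17714, 3639 of 18356 and 3851 of 18901 were under it. DESeq2 called 0 of the 9 at each time. With replicate number as a block, Vim (0.39 ± 0.13), Cdh1 (0.17 ± 0.08), Zeb1 (-0.19 ± 0.13) and Cdh11 (-0.34 ± 0.14) passed at 96 h (adjusted p = 2.2e-07, 0.0021, 0.0094 and 0.01). The fold changes and standard errors in parentheses are those without the block. With the block 3826 of all genes were called at 96 h, against 720 without it.

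At 144 h 6 of 9 genes were lower in WT–mCherry cells beside p53KO–emiRFP cells and none was higher, where 15.5% and 10.1% of all genes were (25.6% in either direction). Cdh2 read 5061, 3297 and 4526 normalized counts beside p53KO–emiRFP cells and 7940, 6689 and 8784 beside WT–emiRFP cells. Cdh11 read 531, 388 and 509 against 1187, 1092 and 1986, and Vim 6431, 4845 and 5107 against 12214, 11750 and 13880. The groups did not overlap in any of the 6 genes, which the test had already picked, and the share over all genes is not given here. Cdh11 was lower by -1.57 ± 0.19, Vim by -1.21 ± 0.12, Twist1 by -0.90 ± 0.15, Cdh2 by -0.86 ± 0.16, Zeb2 by -0.65 ± 0.14 and Zeb1 by -0.48 ± 0.11 (adjusted p = 1.5e-04, 4.0e-05, 0.0013, 0.0017, 0.0048 and 0.007). Zeb1 was not called without replicate 1 (-0.50, adjusted p = 0.064), nor Zeb2 without replicate 3 (-0.53, adjusted p = 0.078). Cdh1, Epcam and Snai1 stood at 0.19 ± 0.13, 0.20 ± 0.13 and 0.31 ± 0.27 (adjusted p = 0.31, 0.28 and 0.43), and with replicate number as a block Cdh1 and Epcam passed (adjusted p = 0.024 and 0.03). The comparison of the WT clones uses the same WT–mCherry libraries of WT + WT gastruloids. Beside p53KO–emiRFP cells, WT–mCherry cells averaged 5461 for Vim, 476 for Cdh11, 470 for Twist1 and 1387 for Zeb1. WT–emiRFP cells averaged 5778, 539, 413 and 1282. For Cdh2 and Zeb2 the means were 4295 and 706 against 3036 and 439.5.

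With the RNA from emiRFP cells in these libraries, estimated at up to 16.8%, subtracted, a step chosen after the data were seen, the same 6 genes were called, with Cdh11 at -1.94 ± 0.19, Vim at -1.40 ± 0.10, Cdh2 at -1.27 ± 0.13, Twist1 at -1.19 ± 0.12, Zeb2 at -1.09 ± 0.11 and Zeb1 at -0.61 ± 0.11. The log2 ratio of Cdh2 to Cdh1 was -2.26, -3.16 and -2.62 beside p53KO–emiRFP cells and -1.45, -1.99 and -1.42 beside WT–emiRFP cells. The groups did not overlap and differed by -1.06 (exact permutation p = 0.1). The test of whether the neighbour difference was equal from 48 to 144 h was past the threshold for 5 genes, Vim, Cdh11, Twist1, Cdh2 and Zeb2, against 11.6% of all genes. Without replicate 1, 2 or 3 it called 3 genes each time, since Zeb2 was lost in every case, Twist1 without replicate 2 and Cdh2 without replicates 1 and 3.

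The lists of related genes were read for how many members passed the test in each direction. At 0, 48 and 72 h 6.14%, 22.1% and 29.1% of all genes were called between p53KO–emiRFP and WT–emiRFP cells. In p53KO–emiRFP cells 9.45% of all genes were higher and 13.8% lower at 96 h. The shares were 27.3% higher and 23.7% lower at 120 h, then 33.2% higher with 32.2% lower at 144 h, and the counts of the lists in this comparison stand beside them. For the counts in WT cells from 0 to 144 h the shares of all genes were 35.9% higher and 35.4% lower. Of 25 epithelial junction and keratin genes, 6 were higher and 0 lower in mES cells, 2 were higher and 5 lower at 48 h, and 2 were higher and 12 lower at 72 h, with medians of 0.31, -0.08 and -0.23. Of the same 25, 11 were higher and 5 lower at 96 h in p53KO–emiRFP cells against WT–emiRFP cells, 6 were higher and 12 lower at 120 h, and 4 were higher and 17 lower at 144 h. The median log2 fold change at these later times was 0.29, -0.35 and -0.81, beside -0.008, 0.046 and 0.007 over all genes. At 144 h the desmosomal plaque gene Pkp3 averaged 139 ± 22.5 normalized counts against 547 ± 62.0, a log2 fold change of -1.98 ± 0.17, and Jup, which encodes plakoglobin, 2643 ± 191 against 7002 ± 212, a log2 fold change of -1.41 ± 0.07 (adjusted p = 2.1e-07 and 1.2e-09). At 120 h the tight junction gene Tjp3 differed by -1.33 ± 0.15 (adjusted p = 3.9e-06) and Pkp3 by -1.95 ± 0.23 (adjusted p = 8.6e-06). In WT cells from 0 to 144 h the same list had 14 genes higher and 5 lower, among them the claudin genes Cldn3, with 790 ± 192 against 118 ± 46.5 normalized counts (n = 6 each), and Cldn7, at 1.40 ± 0.13, and the desmocollin gene Dsc2, at 1.62 ± 0.11 (adjusted p = 4.3e-22, 5.4e-14 and 3.1e-19).

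Among 13 epithelial regulators, 2 were higher and 1 lower in mES cells and 2 were higher and 3 lower at 48 h. At 72 h 2 were higher and 4 lower, and at 96 h 4 were higher and 3 lower. Of these regulators 0 were higher and 10 lower in p53KO–emiRFP cells at 120 h, and 0 were higher and 12 lower at 144 h, with medians of -0.99 and -1.50. The transcription factor genes Elf3 and Klf5 had the largest differences. Elf3 averaged 536 ± 41.1 normalized counts against 2622 ± 400 at 120 h and 948 ± 85.1 against 3826 ± 417 at 144 h, log2 fold changes of -2.29 ± 0.15 and -2.01 ± 0.11 (adjusted p = 2.1e-08 and 2.6e-09). Klf5, which is also high in pluripotent cells, differed by -1.58 ± 0.11 at 120 h and by -2.29 ± 0.10 at 144 h (adjusted p = 6.4e-08 and 6.6e-10). From 0 to 144 h in WT cells 4 of the list were higher and 7 lower. Klf5 was lower by -2.11 ± 0.09, Elf3 was higher by 0.86 ± 0.09 and the membrane protease gene Prss8 was higher by 1.35 ± 0.10 (adjusted p = 4.8e-28, 6.4e-13 and 9.9e-18).

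The mesenchymal and matrix genes were split. Of 24 tested in mES cells, 9 were higher and 2 lower in p53KO–emiRFP cells, and of 23 at 48 h, 4 were higher and 4 lower. The medians were 0.11 and -0.01. Of 24 tested at 72 h and at 96 h, 2 were higher and 8 lower at the first time and 4 were higher and 12 lower at the second, with medians of -0.17 and -0.39. Of 25 tested at 120 h, 13 were higher and 6 lower in p53KO–emiRFP cells, and of 26 at 144 h, 12 were higher and 8 lower, with medians of 0.28 and 0.48. The smooth muscle actin gene Acta2 averaged 1999 ± 91.7 normalized counts against 369 ± 79.4 at 120 h and 747 ± 15.9 against 19.1 ± 3.71 at 144 h, log2 fold changes of 2.44 ± 0.17 and 5.30 ± 0.25 (adjusted p = 6.0e-08 and 9.3e-10). Pdgfra, which encodes a receptor of mesenchymal cells, was higher by 1.87 ± 0.17 at 144 h (adjusted p = 4.2e-07), whereas the matrix gene Sparc was lower by -1.68 ± 0.23 at 120 h (adjusted p = 3.4e-05). In WT cells from 0 to 144 h 18 of 26 were higher and 3 lower, led by the collagen genes Col3a1 at 7.66 ± 0.23 and Col1a2 at 4.43 ± 0.20, while Acta2 was lower by -2.24 ± 0.24 (adjusted p = 5.0e-35, 8.8e-27 and 2.0e-12).

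Of the other transcription factor genes of EMT, 0 of 13 tested were called in mES cells, and 6 of 11 were higher and 1 lower at 48 h. The medians were 0.05 and 0.36. From the same list 5 of 15 tested were higher and 1 lower at 72 h, and 1 of 16 was higher and 5 lower at 96 h. The medians at these times were -0.01 and -0.03. Of 17 tested later, 11 were higher and 3 lower in p53KO–emiRFP cells at 120 h, and 14 were higher and 3 lower at 144 h, with medians of 0.64 and 1.54. Brachyury (symbol T), which marks the primitive streak and tailbud, averaged 10996 ± 964 normalized counts against 1590 ± 239 at 120 h and 2567 ± 94.1 against 124 ± 27.2 at 144 h, log2 fold changes of 2.79 ± 0.13 and 4.37 ± 0.17 (adjusted p = 8.4e-10 and 2.3e-10). Foxc2, a gene of paraxial mesoderm, was higher by 4.27 ± 0.29 at 144 h (adjusted p = 1.8e-08). Eomes, a gene of early mesendoderm, was lower by -2.73 ± 0.12 at 120 h (adjusted p = 8.4e-10). In WT cells from 0 to 144 h 14 were higher and 1 lower, with Sox9 at 8.04 ± 0.19, Foxc1 at 5.70 ± 0.27 and Foxc2 at 4.74 ± 0.32 (adjusted p = 1.9e-40, 1.4e-26 and 1.6e-19).

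Among the other cadherins, 1 of 14 tested was higher and 1 lower in mES cells, and 3 of 15 were higher and 1 lower at 48 h. At 72 h 5 of 19 were higher and 3 lower, and at 96 h 5 of 18 were higher and 3 lower. Of 17 tested at 120 h, 10 were higher and 2 lower in p53KO–emiRFP cells, and of 18 at 144 h, 10 were higher and 4 lower. The protocadherin gene Pcdh19 averaged 7589 ± 1392 normalized counts against 1730 ± 189 at 120 h and 1506 ± 115 against 266 ± 10.5 at 144 h, log2 fold changes of 2.13 ± 0.17 and 2.50 ± 0.13 (adjusted p = 2.3e-07 and 2.1e-09). Cdh4, which encodes R-cadherin, was higher by 1.29 ± 0.12 at 120 h and Pcdh7 by 3.32 ± 0.19 at 144 h (adjusted p = 5.6e-07 and 5.0e-09). In WT cells from 0 to 144 h 15 of 19 were higher and 1 lower, with Pcdh18, Pcdh7 and Pcdh8 at 5.76 ± 0.19, 5.14 ± 0.30 and 4.94 ± 0.15 (adjusted p = 3.1e-33, 4.2e-22 and 1.4e-35).

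Catenins link cadherins to actin. Of 6 tested, 0 were called in mES cells, and 0 were higher and 1 lower at 48 h. At 72 h 0 were higher and 2 lower, and at 96 h 0 were higher and 3 lower. Of these, 1 was higher and 2 lower in p53KO–emiRFP cells at 120 h, and 4 were higher and 2 lower at 144 h, with medians of 0.08 and 0.20. Ctnnal1 was lower by -0.80 ± 0.06 and -0.96 ± 0.10 at these times and Ctnnd2 higher by 0.60 ± 0.13 and 1.01 ± 0.15 (adjusted p = 1.3e-07, 1.2e-06, 0.0019 and 3.5e-05). In WT cells from 0 to 144 h 1 was higher and 3 lower, Ctnnal1 by -0.59 ± 0.05, Ctnna1 by -0.33 ± 0.03 and Ctnnd1 by -0.33 ± 0.07 (adjusted p = 1.4e-15, 1.5e-16 and 9.1e-06). Of 12 genes of TGF-beta signalling, a pathway known to induce Snai and Zeb genes, 2 were higher and 2 lower in mES cells. At 48 h 1 was higher and 3 lower, at 72 h 1 was higher and 3 lower, and at 96 h 1 was higher and 4 lower. Of the same 12, 5 were higher and 4 lower at 120 h and 8 were higher and 3 lower at 144 h, in all 9 of 12 and 11 of 12, where 51.0% and 65.4% of all genes were called. Smad7, an inhibitor of the pathway that the pathway itself induces, was lower by -1.75 ± 0.11 at 120 h, and the ligand gene Tgfb2 was higher by 1.70 ± 0.21 at 144 h (adjusted p = 2.4e-08 and 8.0e-06). From 0 to 144 h in WT cells 8 were higher and 3 lower, with Tgfb2 at 4.61 ± 0.17, its receptor gene Tgfbr2 at 2.48 ± 0.11 and the transducer gene Smad3 at 1.87 ± 0.06 (adjusted p = 7.7e-31, 4.7e-27 and 2.2e-32).

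RNA from p53KO–emiRFP cells was estimated at 16.8%, 2.26% and 9.10% of the WT–mCherry libraries beside them at 144 h. The list counts by neighbour that follow are without its subtraction. In WT–mCherry cells beside p53KO–emiRFP cells at 144 h, where 10.1% of all genes were higher and 15.5% lower, 10 of the 25 epithelial junction and keratin genes were higher and 1 lower, and 4 of the 13 epithelial regulators were higher and 0 lower. Of 26 mesenchymal and matrix genes 3 were higher and 11 lower, and of 18 other cadherins 1 was higher and 8 lower. The transcription factor genes of EMT were divided, with 5 of 17 higher and 6 lower. Of the catenins 0 of 6 were higher and 3 lower, and of the TGF-beta genes 1 of 12 was higher and 4 lower. Between the WT clones at 144 h, 23.8% of all genes were called. WT–mCherry cells had 12 of 17 EMT factor genes higher and 2 lower, and 14 of 26 mesenchymal genes higher and 4 lower. Of 25 junction genes 0 were higher and 11 lower, and of 13 epithelial regulators 0 were higher and 8 lower. For other cadherins it was 9 higher and 1 lower of 18, for catenins 1 and 1 of 6 and for TGF-beta genes 5 and 2 of 12.

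Markers of cell types moved with the 9 genes at 144 h. The summed normalized counts of 8 paraxial mesoderm and somite markers were 23599 to 31989 in p53KO–emiRFP libraries and 3983 to 5424 in WT–emiRFP libraries, and all 8 were higher. The 8 pluripotency markers summed to 22006 to 30106 against 106132 to 122811, and all 8 were lower. All 6 primordial germ cell markers were lower (3467 to 4133 against 13297 to 14073). Of the 7 primitive streak markers 6 were higher and 1 lower (4835 to 5078 against 1182 to 1224), and of the 8 neural markers 5 were higher (7918 to 10160 against 2701 to 3676). Haematoendothelial markers had 5 of 8 lower and cardiac and lateral plate markers 4 of 8 lower and 1 higher (1802 to 2267 against 7706 to 7772, and 415 to 458 against 705 to 1161). Markers of endoderm, an epithelial tissue, had 2 of 8 higher and 2 lower (1261 to 1454 against 616 to 1304), and of 5 neural crest markers tested 2 were higher and 2 lower, with Foxd3 at 0 in every p53KO–emiRFP library of that time. The part of these cell types in the values of the 9 genes was not tested. The streak list shares T, Eomes and Mesp1, the paraxial list Foxc2 and the neural crest list Sox9 with the EMT transcription factors, and the haematoendothelial list shares Cdh5 with the other cadherins.

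Beside p53KO–emiRFP cells, the WT–mCherry cells at 144 h had 6 of 8 neural markers lower (3894 to 5781 against 5782 to 6767 summed) and 3 of 8 endoderm markers higher (1184 to 2974 against 530 to 1485). Of 7 primitive streak markers 4 were higher and 0 lower (1234 to 1509 against 968 to 1050), of 6 primordial germ cell markers 4 were higher and 1 lower (11304 to 13164 against 10613 to 11090), and of 8 paraxial mesoderm markers 3 were higher and 1 lower (4942 to 10607 against 7149 to 10814). Of 5 neural crest markers tested 2 were lower (1799 to 2420 against 3568 to 3974), and of 8 haematoendothelial markers 1 was higher and 3 lower (6022 to 6631 against 5707 to 6216). Their 8 pluripotency markers summed to 82545 to 93013 and 78846 to 87273, ranges that overlap. RNA from p53KO–emiRFP cells, estimated at 16.8%, 2.26% and 9.10% of the libraries beside them, was not subtracted from these marker values. Its part in them was not tested. Between the WT clones at 144 h, WT–mCherry cells had 5 of 8 neural and 5 of 8 paraxial markers higher and 6 of 8 pluripotency markers lower. Of 5 neural crest markers tested 3 were higher (3568 to 3974 against 1680 to 2060), and of 6 primordial germ cell markers 3 were lower (10613 to 11090 against 13297 to 14073). The part of these differences in those of the 9 genes was not tested.

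Over the 23 groups, the highest mean was 4.07-fold above the lowest for Epcam and 74.4-fold for Cdh2. Cdh11 was lowest in mES cells, where its 1 to 6 reads a library leave the fold to the intervals given with its time course. Cdh1 was lowest in p53KO–emiRFP cells at 144 h (6359 ± 1249) and highest in WT–mCherry cells at 48 h (46756 ± 2066 beside p53KO–emiRFP cells). Cdh2 was lowest in WT–emiRFP mES cells and highest in p53KO–emiRFP cells at 144 h (14037 ± 779), and Zeb1 was highest there too (2417 ± 180). In the order of the groups most neighbours overlapped. Of 22 neighbouring pairs only 3 were apart for Cdh1, Epcam and Vim, 1 for Snai1, 4 for Zeb1 and Zeb2 and 6 for Cdh2, Cdh11 and Twist1.

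Across the group means the log2 levels of Cdh1 correlated at 0.91 with Epcam, -0.94 with Zeb1 and -0.75 with Cdh2, and those of Cdh2 at 0.94 with Zeb2 and 0.92 with Cdh11 (Pearson's r over 23 groups). The groups share time points and normalization, so the values describe the time course and were not tested. Of the 12790 genes whose log2 CPM averaged 1 or more, those most like Cdh1 were Taf7 (0.970), Gng3 (0.968) and Snrpn (0.964). Those most like Cdh2 were Maml3 (0.996), Zfhx4 (0.993) and Dach1 (0.992), and those most like Cdh11 were Pbx2 (0.979), St3gal1 (0.977) and Trim9 (0.974). Cdh2 lies on GRCm38 at chr18:16588877-16809246 (minus strand), Zeb1 at chr18:5591860-5775467 (plus strand) and Vim at chr2:13573927-13582826 (plus strand), and the antisense gene over Zeb1 exons averaged at most 5.59 counts.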

How the data were processed

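Polyadenylated RNA of mES cells and sorted gastruloid cells was sequenced in a stranded bulk protocol. The authors trimmed reads with Trim Galore 0.6.7, aligned them to GRCm38.p6 with STAR 2.7.11b and its gene counting on the Gencode v.25 annotation, and deposited raw counts of uniquely mapped reads per gene symbol. Which strand column was taken is not given in the sources used here. All 69 columns were matched to samples by name, and no 2 replicates held the same counts (at most 6.31% of counted genes were equal).

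The 9 members and all gene and marker lists were chosen with earlier results of these data known. Counts were divided by median-of-ratios size factors over the 69 libraries. The main test was edgeR 4.0.16 (quasi-likelihood, R 4.3.3) on the deposited counts after a low-count filter by group, with p-values adjusted by the Benjamini-Hochberg method over all tested genes and a threshold of 0.05. Matched-time comparisons were fitted within each time, and time steps and the tests of differences over time in 1 fit of all 69 libraries, where WT is the mean of both WT clones in WT + WT gastruloids. Ratios of Cdh2 to Cdh1 were compared with exact two-sided permutation tests. Exon lengths and positions came from Gencode M21 on GRCm38, which matched 96.3% of symbols. Genes outside the 9 were named by size of change (up to 3 per list for WT cells from 0 to 144 h, and up to 2 for p53KO–emiRFP against WT–emiRFP cells at 120 h and likewise at 144 h, if past the threshold, with 1 direction in every same-numbered pair and an average log2 CPM of 1 or more) or, for Cdh1, Cdh2 and Cdh11, as the 3 most correlated genes. 1 gene that this rule named is not reported here. H2bc14 came from a list of clone markers, and Foxd3, Mesp1 and Cdh5 were named after their values were seen.

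Same-numbered libraries deviated together in 14 of 17 matched-time comparisons, with a correlation of deviations over 0.1 in every pair (all comparisons range from 0.036 to 0.686). Those 14 were read as paired, since the study's methods describe separate experiments. The main fits and the exact permutation tests did not use this pairing. Values with replicate number as a block are given where they change a call. Alternatives were DESeq2 1.42.0, TMM scaling, no low-count filter, a minimum log2 fold change of 1, fits on other sets of groups, the block and leaving out each replicate. The subtraction of emiRFP RNA and a WT mean over 3 WT populations were added after the data were seen. The model fits were tested on simulated counts. Promoter sequences came from RefSeq.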

Additional observations from a re-analysis of the deposited data

Results flagged for a closer look

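For all 9 genes the difference between p53KO–emiRFP and WT–emiRFP cells was itself different between times, by the edgeR quasi-likelihood F test of the interaction of cell line with time over 0 to 144 h. The adjusted p was 2.6e-19 for Cdh1, 2.5e-14 for Cdh2, 7.4e-09 for Cdh11, 6.3e-15 for Epcam and 4.8e-11 for Vim. It was 3.4e-07 for Snai1, 1.3e-09 for Zeb1, 3.0e-15 for Zeb2 and 1.5e-14 for Twist1. Cdh1 stood at a log2 fold change of 0.59 at 96 h and -1.50 at 144 h, and Snai1 at -0.79 at 96 h and 1.29 at 120 h.

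The difference between WT–mCherry cells beside p53KO–emiRFP cells and beside WT–emiRFP cells was also different between times, from 48 to 144 h, for 5 genes. The adjusted p was 0.0045 for Cdh2, 1.9e-05 for Cdh11, 7.5e-08 for Vim, 0.03 for Zeb2 and 4.7e-04 for Twist1. Vim stood at 0.39 at 96 h and -1.21 at 144 h.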

How the results depend on the processing

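No called value of the 9 genes changed direction under any alternative, and DESeq2 and the subtraction of emiRFP RNA kept every value on its side of the threshold. The cause of the other changes was not tested. Over all times 29 tests of p53KO–emiRFP against WT–emiRFP cells passed, 35 with replicate number as a block, 10 with a minimum log2 fold change of 1 and 23 to 27 without 1 replicate. For WT–mCherry cells by neighbour 6 passed, 13 with no low-count filter, 16 with the replicate block, 2 with the minimum fold change and 5 to 6 without 1 replicate. Between the WT clones 12 passed, 23 with the replicate block, 5 with the minimum fold change and 8 to 10 without 1 replicate. For the consecutive WT steps 43 passed, 24 with the minimum fold change and 39 to 43 without 1 replicate. For those of p53KO–emiRFP cells 37 passed, 24 with the minimum fold change and 32 to 36 without 1 replicate. The test of the neighbour difference over time passed for 5 genes, 8 with no filter and 3 without any 1 replicate. The replicate block raised the calls over all genes too. By neighbour they went from 13 to 872 at 48 h, 720 to 3826 at 96 h, 1122 to 3825 at 120 h and 4958 to 7229 at 144 h. For p53KO–emiRFP against WT–emiRFP cells they went from 3896 to 7259 at 48 h and 4269 to 7081 at 96 h. Counts over all genes with no filter or the minimum fold change are not given here. The block lost no call. In the comparisons where same-numbered libraries did not deviate together it added Vim, Zeb2, Snai1 and Cdh1 by neighbour at 120 h (adjusted p = 0.011, 0.031, 4.5e-04 and 0.0048) and Cdh1 and Cdh2 between the WT clones at 72 h (adjusted p = 0.043 and 0.048). It also added Cdh1 to the neighbour test over time (adjusted p = 0.042). TMM scaling moved the median of all genes by at most 0.038 (log2). Depth limits Cdh11 in mES cells, with 1 to 6 reads a library.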
